A study of Homo sapiens with 12 samples.

Results

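The 10 genes described here control how much glucose a cell takes up and how it is used: the glucose transporters SLC2A1 and SLC2A3, the hexokinases HK1 and HK2, the bifunctional enzymes PFKFB2 and PFKFB3, the uptake inhibitor TXNIP, the glycolytic enzymes PGK1 and LDHA, and the pyruvate dehydrogenase kinase PDK1. They were listed by name, as 10 of the 11963 genes that a probe set of the array names, and every probe set of each was read. Signals came from 12 arrays of 5 human melanoma cell lines (SkMel-28, SkMel-5, SkMel-1, Malme3M and SkMel-19), all with the V600E form of the kinase BRAF, which keeps growth signalling through MEK and ERK switched on. The groups were 5 lines treated for 8 h with 250 nM PLX4032 (the RAF kinase inhibitor vemurafenib), the same 5 lines kept for 8 h in the solvent alone (0.1% DMSO), and SkMel-19 and Malme3M treated for 8 h with 1000 nM PLX4032. All lines grew in RPMI 1640 medium with 10% fetal bovine serum. Each combination of line and dose was measured on a single array. The lines therefore serve as replicates, and the labels name no separate cultures within a line. BRAF itself was not analysed here.

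Glucose enters cells through transporters of the SLC2A family and is trapped by hexokinases, which phosphorylate it. The bifunctional enzymes of the PFKFB family then set the level of fructose 2,6-bisphosphate, the strongest activator of the phosphofructokinase step. TXNIP, an alpha-arrestin, lowers uptake by taking glucose transporters off the cell surface, and its own transcription follows the glucose-sensing factors MLXIP (MondoA) and MLX. Melanoma cells with active BRAF are known for a high rate of glycolysis.

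The arrays share 1 scale as deposited, with medians between 102.5 and 130.4. Of 9 melanocyte markers 8 had a named probe set, and all 8 were bright enough to be tested. TYRP1 was bright in 4 of the 5 lines only, with a lowest signal of 18.7. The summed signal of these markers lay between 43989 and 69917 at 250 nM and between 34214 and 64263 in DMSO, and MLANA, a melanosome protein, was the single marker that passed the test, with a log2 change of 0.20 (SE 0.04, limma adjusted p = 0.0100, higher in 5 of 5 lines). All 5 blood cell markers with a named probe set were too dim to be tested, and their summed signal was between 125.4 and 221.9 at 250 nM and between 125.4 and 203.5 in DMSO. For fibroblast markers the sums were between 633.5 and 2078 at 250 nM and between 655.1 and 1775 in DMSO, and none of the 2 tested passed. For keratinocyte and epithelial markers the sums were between 639.2 and 5042 at 250 nM and between 694.4 and 4939 in DMSO, and of the 2 tested KRT18 fell (-0.77, SE 0.15, limma adjusted p = 0.00741). The other, CDH1, was higher in 4 of 5 lines but did not pass (0.72, SE 0.29, limma adjusted p = 0.0907), with SkMel-1 at 2.10. Their part in the results below was not tested. RNA integrity was read from the log2 ratio of the 3' over the 5' control probe set. For GAPDH its mean shift, 250 nM minus DMSO, was -0.01 (SD 0.07, n = 5 lines, p = 0.875, two-sided exact test by sign flips). The shift for ACTB was -0.02 (SD 0.08, n = 5 lines, p = 0.625, same exact test), where the smallest p that 5 lines can give is 0.0625.

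At 250 nM genes of glucose entry and its control changed. The largest fall among the 10 was that of the transporter SLC2A3, 4.38-fold, followed by the hexokinase HK2, 2.90-fold, PFKFB3, 1.59-fold, and HK1, 1.19-fold. TXNIP rose 1.99-fold. PFKFB2 was 1.51-fold higher and passed the test, but all its DMSO arrays lay under the level set for testing, which it reached through its treated arrays, so its change is given as a description. SLC2A1, PDK1, LDHA and PGK1 did not pass the test. Counting PFKFB2, 6 of the 10 genes passed, 4 lower and 2 higher, where 28.3% of all 7178 genes tested passed (limma with cell line as a block, Benjamini-Hochberg adjusted p under 0.05 over all genes tested). By direction, 13.1% of all genes tested fell and 15.2% rose, a balance that depends on scaling: 53.6% of the genes that passed were higher, and 45% with arrays centred on their median. All 6 moved the same way in all 5 lines, which 16.6% of all genes tested did downward and 20.9% upward. A test with the line as a block favours genes that move the same way in every line. The agreement of genes that passed it is therefore a description, as those shares cover all genes tested. The 10 genes were chosen with results of these data known, so the 6 of 10 that passed are a description too. Their median log2 change was -0.20, and that of all genes tested was 0.03, while the median size of change without regard to sign was 0.42 for the 10 genes and 0.19 for all genes tested. Changes are differences of log2(signal + 12), so they understate the fold change of dim genes. In these bulk samples, fewer cells that express a gene and less RNA per cell cannot be told apart.

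**Figure D1:**
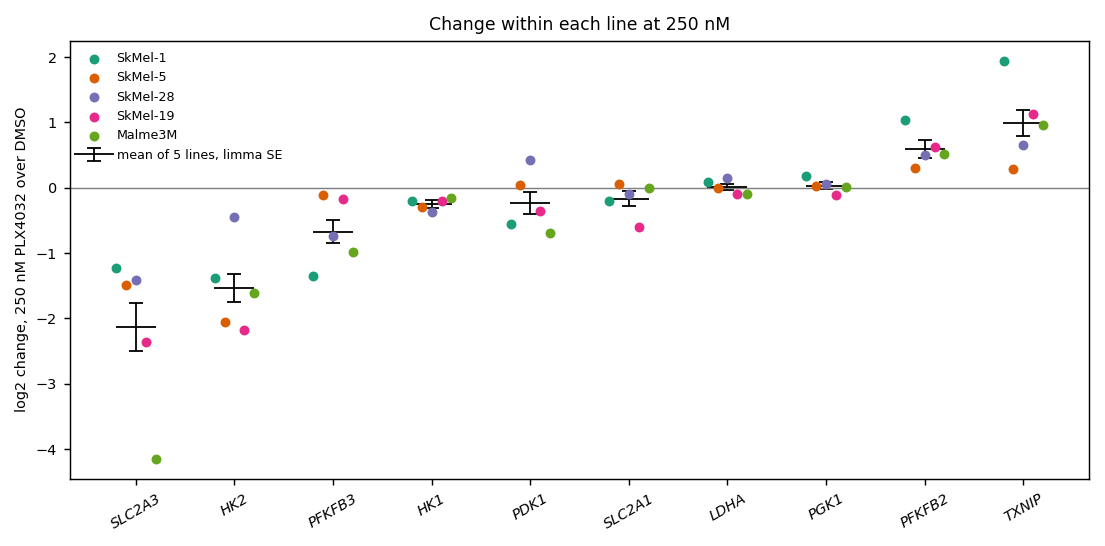
Log2 change at 250 nM PLX4032 over DMSO (vertical axis) for each of the 10 genes, with 1 point per line and a bar at the mean of the 5 lines with its limma standard error. SLC2A3, HK2, PFKFB3 and HK1 are below 0 in all 5 lines and PFKFB2 and TXNIP above 0 in all 5, with SLC2A3 in Malme3M the farthest point at -4.15.

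SLC2A3 encodes GLUT3, a transporter of high affinity for glucose. Its brightest probe set gave signals at 250 nM of 225 in SkMel-1, 130.5 in SkMel-5, 196 in SkMel-28, 64.2 in SkMel-19 and 45.9 in Malme3M, against 543 in SkMel-1, 389 in SkMel-5, 542 in SkMel-28, 381 in SkMel-19 and 1014 in Malme3M in DMSO. Every treated array was below every DMSO array, a pattern that 1.31% of the genes tested share. None of the 10 genes had every treated array above every DMSO array, as 0.543% of the genes tested did. The mean log2 change was -2.13 (SE 0.37, n = 5 lines, limma adjusted p = 0.00392), the 21st largest fall of 7178 genes. It ranged from -1.23 in SkMel-1 to -4.15 in Malme3M, the line with the highest signal in DMSO, and was -1.63 without Malme3M (limma adjusted p = 0.00104). The arrays of SkMel-19 and Malme3M at 250 nM lay under a signal of 85.7, the level a gene's mean had to reach to be tested, so the size in these lines depends on the pseudocount. With every value under that level raised to it the mean was -1.91 (limma adjusted p = 0.00226).

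The other probe sets of SLC2A3 gave like values. Those naming SLC2A3 alone stood at -2.10 (SE 0.38, limma adjusted p = 0.00493) and -1.97 (SE 0.32, limma adjusted p = 0.00318), with 24.4% of all 11986 probe sets tested passing. In the first of these every treated array lay under the level of 85.7. That probe set reached the level through its DMSO arrays, so its change is given as a description. A further 2 probe sets, annotated to both SLC2A3 and its near-identical neighbour SLC2A14, stood at -1.38 (SE 0.33) and -1.59 (SE 0.35). The brightest probe set is of the _x_at type, whose probes may also bind other transcripts, and signal from SLC2A14 cannot be told apart from that of SLC2A3 in the shared probe sets. All 5 probe sets were lower at 250 nM in all 5 lines.

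SLC2A1 encodes GLUT1, the transporter of basal glucose uptake in most cells. Its signals at 250 nM were 185 in SkMel-1, 166 in SkMel-5, 611 in SkMel-28, 416 in SkMel-19 and 175 in Malme3M, against 213.5 in SkMel-1, 159 in SkMel-5, 655 in SkMel-28, 633.5 in SkMel-19 and 176 in Malme3M in DMSO. SkMel-28 and SkMel-19 were the bright lines in both groups, and the groups overlapped. The mean log2 change was -0.17 (SE 0.11, limma adjusted p = 0.298, lower in 4 of 5 lines), with SkMel-19 at -0.59 and the other lines between -0.20 and 0.05. The other probe set of SLC2A1 was too dim to be tested, with a median signal of 22.5. The change of SLC2A3 was below that of SLC2A1 in every line, with differences between -1.03 and -4.14 log2 units.

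TXNIP moved the opposite way to SLC2A3. Its brightest probe set gave signals at 250 nM of 571.5 in SkMel-1, 931 in SkMel-5, 2327 in SkMel-28, 1272 in SkMel-19 and 2340 in Malme3M, against 139.5 in SkMel-1, 765 in SkMel-5, 1479 in SkMel-28, 575.5 in SkMel-19 and 1198 in Malme3M in DMSO. Each line rose over its own control, although the groups overlapped, with SkMel-1 lowest and SkMel-28 highest in DMSO. On average the log2 change was 0.99 (SE 0.20, n = 5 lines, limma adjusted p = 0.00717), the 55th largest rise of 7178 genes. SkMel-1 had the largest rise, 1.95, and SkMel-5 the smallest, 0.28, and without SkMel-1 the mean was 0.75 (limma adjusted p = 0.00857). The other probe sets stood at 1.08 (SE 0.19, limma adjusted p = 0.00501) and 0.98 (SE 0.11, limma adjusted p = 0.000598), and both were higher in all 5 lines.

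The promoter of TXNIP is known to hold a carbohydrate response element, a pair of E-box-like hexamers through which MLXIP and MLX drive the gene. Promoter windows, from 250 bases before to 50 after a transcript start, were taken from RefSeq (GRCh38.p14) for 8 of the 10 genes, 19 windows in all. SLC2A3 and PFKFB2 were not matched. Both strands were searched for the E-box CACGTG, the site of MYC and MLX family factors, for ACGTG, the core of the hypoxia response element, which every E-box CACGTG also holds, and for a pair of CACGNG boxes 5 bases apart, a form chosen after the TXNIP window had been read. The E-box lay in 3 of the 19 windows, those of HK2, PFKFB3 and LDHA, and 7.23% of 34943 windows of all genes hold it. ACGTG lay in 7 of the 19 windows, of HK2, PFKFB3, TXNIP, LDHA, PDK1 and PGK1, against 21.4% of all windows. By gene, ACGTG was found for 6 of the 8, against 24.8% of all genes. These shares are not matched for windows: the 8 genes had 19, and all 27167 genes had 34943. A gene with more windows has more chances to hold the string. The paired box lay in TXNIP alone of the 8 genes with a window, at position -88 from the start, and in 0.0572% of all windows. A match is a string of letters, not a bound site. The windows of TXNIP (chr1:145996530-145996829, minus strand), HK2 (the second of its windows, chr2:74834920-74835219, plus strand) and LDHA (chr11:18394313-18394612, plus strand) are shown 5′ to 3′, because they set a gene that rose, a gene that fell and a gene that did not pass side by side. Capitals mark the paired CACGNG boxes in TXNIP and the E-box CACGTG in HK2 and LDHA.
TXNIP: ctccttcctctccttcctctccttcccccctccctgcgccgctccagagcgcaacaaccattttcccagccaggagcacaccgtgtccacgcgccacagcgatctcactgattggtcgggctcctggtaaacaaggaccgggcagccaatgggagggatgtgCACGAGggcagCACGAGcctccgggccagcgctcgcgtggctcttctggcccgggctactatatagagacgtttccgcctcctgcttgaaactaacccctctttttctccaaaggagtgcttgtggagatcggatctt
HK2: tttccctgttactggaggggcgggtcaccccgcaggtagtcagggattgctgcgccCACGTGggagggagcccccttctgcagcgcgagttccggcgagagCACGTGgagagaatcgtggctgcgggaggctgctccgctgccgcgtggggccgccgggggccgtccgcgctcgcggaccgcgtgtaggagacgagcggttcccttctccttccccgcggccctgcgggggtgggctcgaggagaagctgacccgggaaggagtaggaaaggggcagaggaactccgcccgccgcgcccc
LDHA: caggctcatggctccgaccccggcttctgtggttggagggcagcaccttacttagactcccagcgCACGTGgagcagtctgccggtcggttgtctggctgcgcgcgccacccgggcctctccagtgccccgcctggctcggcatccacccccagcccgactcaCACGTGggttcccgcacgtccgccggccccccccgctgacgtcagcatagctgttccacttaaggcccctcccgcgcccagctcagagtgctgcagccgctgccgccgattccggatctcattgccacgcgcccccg
HK2, which fell, and LDHA, which did not pass, each hold 2 E-boxes, at positions -194 and -149 from the start in HK2 and -185 and -87 in LDHA.

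The transcripts of the factors themselves were measured. MLX fell (-0.46, SE 0.07, limma adjusted p = 0.00263, lower in 5 of 5 lines) and MLXIP rose (0.29, SE 0.09, limma adjusted p = 0.0400, higher in 5 of 5 lines). HIF1A, the oxygen-regulated subunit of the hypoxia factor that drives several of the 10 genes, fell (-0.44, SE 0.09, limma adjusted p = 0.00956), with Malme3M at -0.85 and SkMel-19 at -0.16. In the list of TXNIP relatives and glucose sensing these were 2 falls and 1 rise among 5 genes tested, and the alpha-arrestin relatives of TXNIP were not among the genes tested.

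HK2, the inducible hexokinase bound to mitochondria, fell in every line. Its signals at 250 nM were 261 in SkMel-1, 389 in SkMel-5, 2581 in SkMel-28, 378 in SkMel-19 and 552 in Malme3M, against 702 in SkMel-1, 1660.3 in SkMel-5, 3527 in SkMel-28, 1753 in SkMel-19 and 1712 in Malme3M in DMSO. SkMel-28 was the brightest line in both groups, kept most of its signal and made the groups overlap. The mean log2 change was -1.54 (SE 0.21, n = 5 lines, limma adjusted p = 0.00161), the 52nd largest fall, with SkMel-28 at -0.45 and the other 4 lines between -1.39 and -2.18. A dimmer second probe set stood at -0.98 (SE 0.18, limma adjusted p = 0.00543), lower in all 5 lines, so the direction held and the size depended on the probe set.

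HK1, the hexokinase found in most tissues, changed little. Its signals at 250 nM were 3694 in SkMel-1, 732 in SkMel-5, 1623 in SkMel-28, 2794 in SkMel-19 and 906 in Malme3M, against 4236 in SkMel-1, 905 in SkMel-5, 2111 in SkMel-28, 3232 in SkMel-19 and 1015 in Malme3M in DMSO. The lines differed 4.68-fold in DMSO, far more than the drug moved any of them, and the groups overlapped. The mean log2 change of -0.25 (SE 0.06) passed (limma adjusted p = 0.0211), and the 5 lines lay close together, between -0.16 and -0.38. The call was lost without SkMel-28 (-0.22, limma adjusted p = 0.0744) and without SkMel-19 (-0.26, limma adjusted p = 0.0582), and with the line as a random block (-0.25, limma adjusted p = 0.163). The change of HK2 was below that of HK1 in every line, with a difference of -0.07 log2 units in SkMel-28 and of -1.19 to -1.97 in the other 4 lines.

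**Figure D2:**
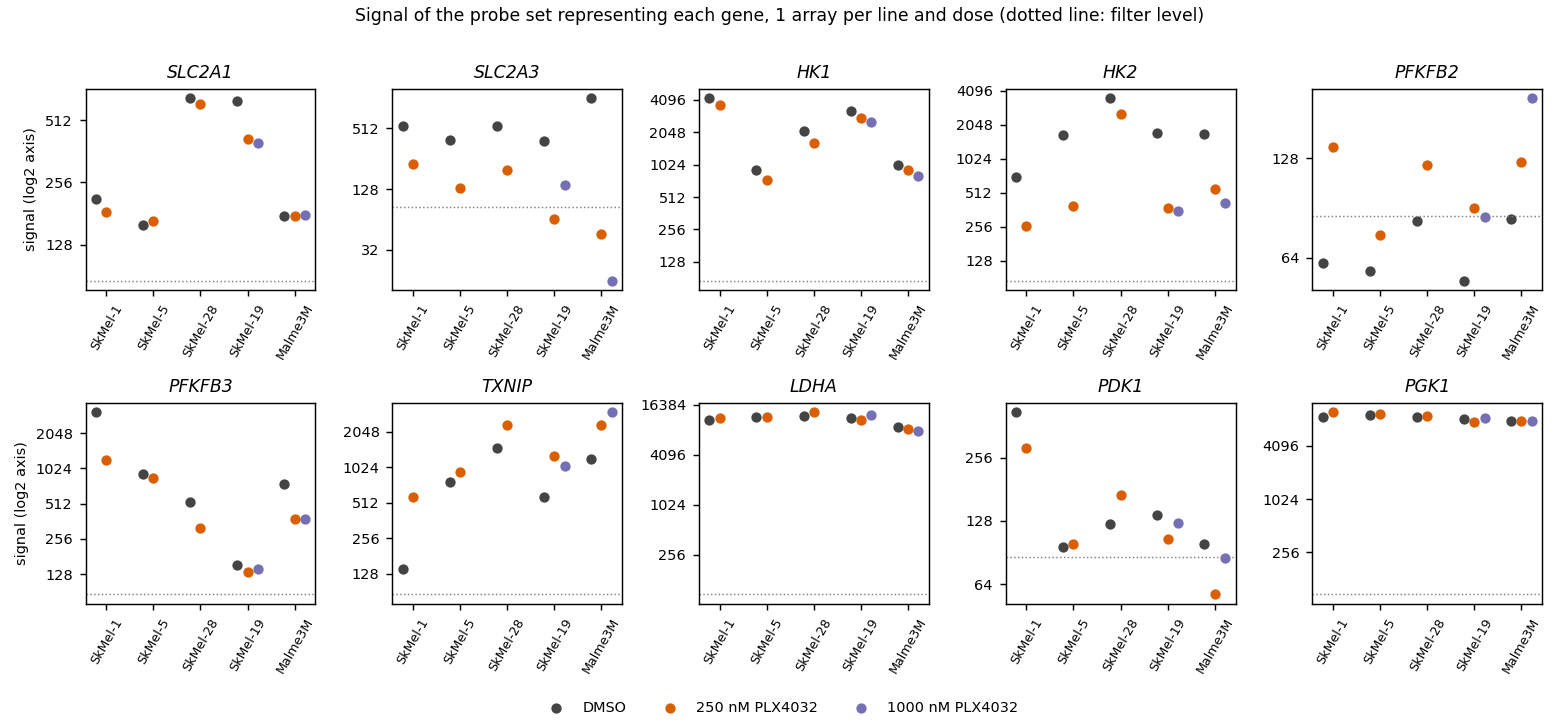
Deposited signal on a log2 axis for the probe set that represents each gene, by line, with 1 point per array coloured by dose and a dotted line at the filter level of 85.7. SLC2A3 and HK2 are lower and TXNIP higher under PLX4032 in every line, while LDHA and PGK1 stay near the top of the scale in all 12 arrays.

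PFKFB3 and PFKFB2 encode isoforms of the enzyme that makes and breaks down fructose 2,6-bisphosphate, PFKFB3 with a strong bias toward making it and PFKFB2 best known from heart. PFKFB3 gave signals at 250 nM of 1202 in SkMel-1, 851 in SkMel-5, 314.5 in SkMel-28, 134 in SkMel-19 and 377 in Malme3M, against 3098 in SkMel-1, 924 in SkMel-5, 531 in SkMel-28, 152 in SkMel-19 and 754 in Malme3M in DMSO. It had the widest spread between lines of the 10 genes, 20.4-fold in DMSO from SkMel-19 to SkMel-1, and the groups overlapped. Over the 5 lines the log2 change averaged -0.67 (SE 0.17, limma adjusted p = 0.0209), largest in SkMel-1 (-1.36) and Malme3M (-0.98) and small in SkMel-5 (-0.12) and SkMel-19 (-0.17). The call was lost without SkMel-1 (-0.50, limma adjusted p = 0.0585), without SkMel-28 (-0.65, limma adjusted p = 0.0625) or without Malme3M (-0.59, limma adjusted p = 0.0622).

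PFKFB2 was the dimmest of the 10 genes. Its signals at 250 nM were 139 in SkMel-1, 75.1 in SkMel-5, 122 in SkMel-28, 90.3 in SkMel-19 and 124 in Malme3M, against 61.8 in SkMel-1, 58.5 in SkMel-5, 82.6 in SkMel-28, 54.7 in SkMel-19 and 83.7 in Malme3M in DMSO. All 5 DMSO arrays lay under the filter level of 85.7, and the SkMel-5 array at 250 nM, under it too, made the groups overlap. Its log2 change averaged 0.59 (SE 0.14, limma adjusted p = 0.0165, higher in 5 of 5 lines). With no DMSO array above the filter level, a test of this gene says little beyond its brighter treated arrays. The call was lost without SkMel-1 (0.48, limma adjusted p = 0.0519) and with values raised to the filter level (0.33, limma adjusted p = 0.0735). The other probe set was too dim to be tested and was higher in 4 of 5 lines. The change of PFKFB3 was below that of PFKFB2 in every line, with a difference of -0.42 log2 units in SkMel-5 and of -2.39 in SkMel-1 at the ends of the range.

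**Figure D3:**
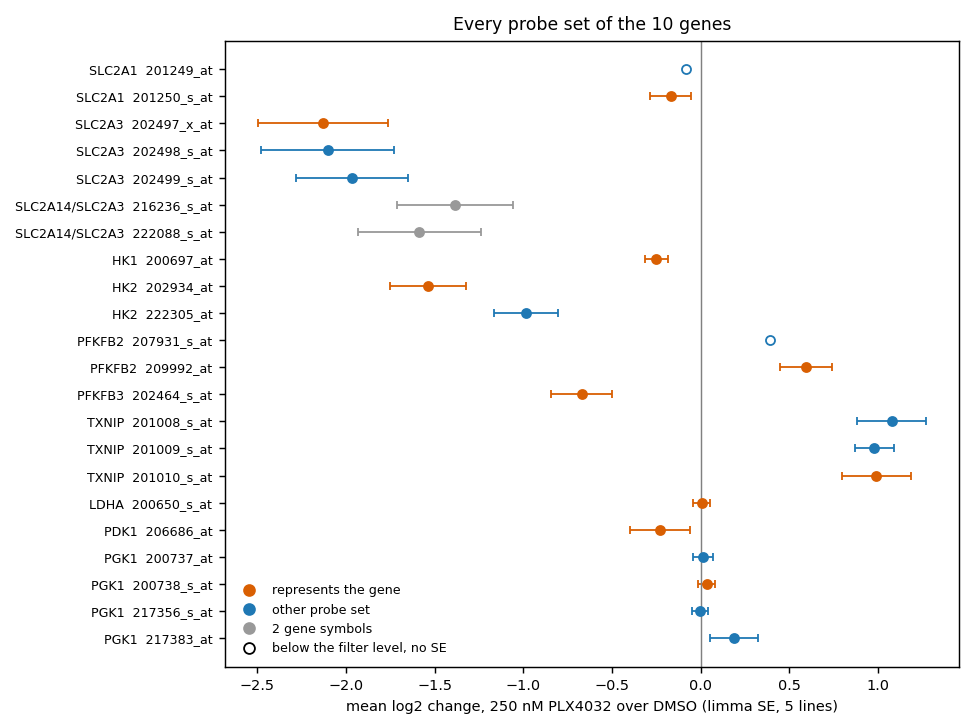
Mean log2 change at 250 nM PLX4032 over DMSO with its limma standard error (n = 5 lines) for all 22 probe sets that name 1 of the 10 genes; open points were below the filter level and carry no error. The probe sets of SLC2A3 and of HK2 are all below 0 and those of TXNIP all near 1.

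Of the 20 probe sets that name 1 of the 10 genes alone, 18 were bright enough to be tested and 11 passed, 7 lower and 4 higher, where 24.4% of all probe sets tested passed, 11.9% lower and 12.5% higher. The counts include the PFKFB2 probe set, with all its DMSO arrays under the filter level. They also include a probe set of SLC2A3 with all its treated arrays under that level. Each reached the level through its brighter group. Probe sets of the same gene read the same arrays, so they are not separate results. SLC2A3, TXNIP and HK2 each had more than 1 probe set that passed. The counts are therefore a description. None of the genes had probe sets that passed in opposite directions.

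The genes downstream in glycolysis were bright and steady. PGK1, the first enzyme of the pathway to make ATP, gave signals between 7592 and 9870.4 at 250 nM and between 7780.4 and 9220.1 in DMSO, and its mean log2 change was 0.03 (SE 0.05, limma adjusted p = 0.615). LDHA, which turns pyruvate into lactate, lay between 8331 and 13468 at 250 nM and between 8935 and 12203 in DMSO, with a mean log2 change of 0.01 (SE 0.05, limma adjusted p = 0.933). In both genes the sign of so small a change depended on the scaling of the arrays. Changes in these genes stayed between -0.11 and 0.17 in the 5 lines. At signals this high a probe set can approach the top of its range, and whether that compressed a change was not tested. The other 3 probe sets of PGK1 did not pass either, with mean changes of 0.02, -0.00 and 0.19.

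PDK1, a kinase that inhibits pyruvate dehydrogenase and so keeps pyruvate out of the mitochondria, was split between lines. Its signals at 250 nM were 285.5 in SkMel-1, 99.0 in SkMel-5, 169.5 in SkMel-28, 105 in SkMel-19 and 57.1 in Malme3M, against 424 in SkMel-1, 96.0 in SkMel-5, 124 in SkMel-28, 137 in SkMel-19 and 99.9 in Malme3M in DMSO. It was higher in SkMel-28 (0.42) and SkMel-5 (0.04) and lower in Malme3M (-0.70), SkMel-1 (-0.55) and SkMel-19 (-0.35). The mean was -0.23 (SE 0.17, limma adjusted p = 0.342).

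The higher dose was given to SkMel-19 and Malme3M only. At 1000 nM HK2 fell 4.43-fold (log2 change -2.15, SE 0.16, n = 2 lines, limma adjusted p = 0.00266) and TXNIP rose 2.11-fold (1.08, SE 0.16, limma adjusted p = 0.0157). These were 2 of the 10 genes, 1 lower and 1 higher, where 11.2% of all 7178 genes tested passed, 5.89% lower and 5.29% higher. SLC2A3 had the largest change of the 10, -3.29, but missed the threshold (SE 0.79, limma adjusted p = 0.0512). The lines stood far apart, with Malme3M at -5.20 and SkMel-19 at -1.37. It passed in 4 other settings, among them a pseudocount of 64 (-2.44, limma adjusted p = 0.0477) and the mean of its probe sets (-2.82, limma adjusted p = 0.0425). PFKFB2 (0.83, SE 0.23, limma adjusted p = 0.0689), HK1 (-0.33, SE 0.09, limma adjusted p = 0.0646) and PFKFB3 (-0.54, SE 0.24, limma adjusted p = 0.177) did not pass.

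The signals show how far the doses differed. HK2 in SkMel-19 had 1753 in DMSO, 378 at 250 nM and 353 at 1000 nM, and in Malme3M 1712 in DMSO, 552 at 250 nM and 413.5 at 1000 nM. TXNIP had 575.5, 1272 and 1042.5 in SkMel-19 and 1198, 2340 and 3003 in Malme3M at DMSO, 250 nM and 1000 nM, so the higher dose lay below the lower one in SkMel-19 and above it in Malme3M. The brightest probe set of SLC2A3 had 381, 64.2 and 139.8 in SkMel-19 and 1014, 45.9 and 15.9 in Malme3M at the same doses.

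The other probe sets that name SLC2A3 alone differed less between the doses in SkMel-19 than the brightest did. In SkMel-19 they read 55.3 and 63.0 at 250 nM and 63.1 and 72.7 at 1000 nM, and in Malme3M 16.6 and 55.4 at 250 nM and 22.1 and 50.3 at 1000 nM. All of these lie under the filter level.

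Between 1000 nM and 250 nM none of the 10 genes passed, and 0% of all 7178 genes did by limma with the line as a fixed or a random block. With the fixed block, 75 genes (1.04%) had an unadjusted limma p under 0.05. None of the 10 was among them, and with so small a share over all genes this says nothing about the 10. The differences were -0.25 for HK2 (SE 0.16), 0.04 for TXNIP (SE 0.16), -0.03 for SLC2A3 (SE 0.79), 0.26 for PFKFB2 (SE 0.23) and 0.36 for PDK1 (SE 0.19), each with a limma adjusted p of 0.999. The 2 lines leave 2 residual degrees of freedom, and the errors do not bar sizeable dose effects, above all for SLC2A3. The comparisons of each dose with DMSO share their control arrays. On the same 2 lines at 250 nM, HK2 (-1.89, SE 0.16, limma adjusted p = 0.00366) and TXNIP (1.04, SE 0.16, limma adjusted p = 0.0172) again passed, 2 of the 10 genes, where 11.3% of all genes did, 5.36% lower and 5.98% higher.

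**Figure D4:**
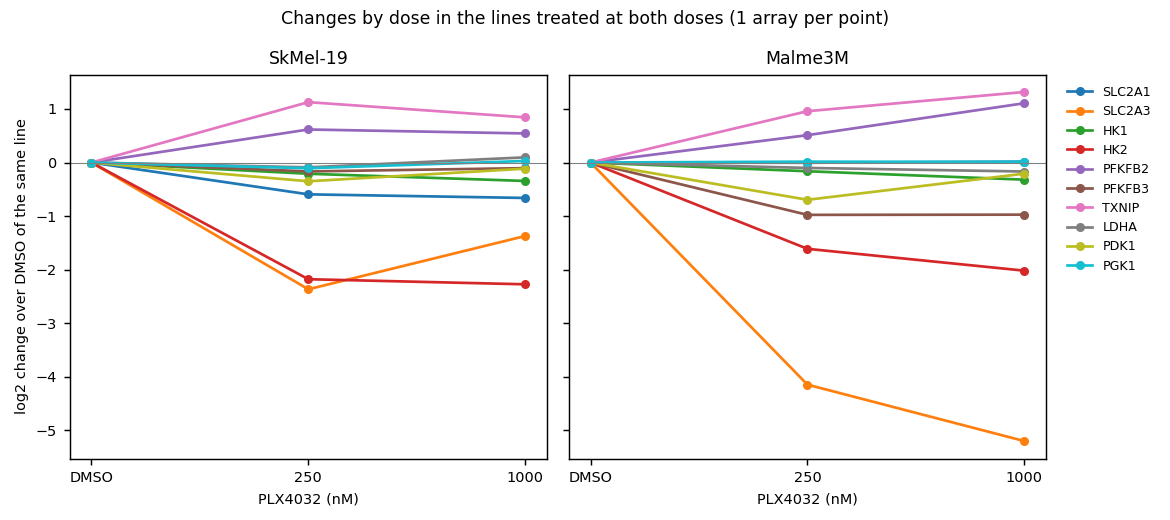
Log2 change over the DMSO array of the same line (vertical axis) at 250 and 1000 nM PLX4032 in SkMel-19 and Malme3M, 1 array per point and 1 coloured line per gene. HK2 is near -2 at both doses in both lines, while SLC2A3 reaches -5.20 in Malme3M and -1.37 in SkMel-19 at 1000 nM.

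The rest of glucose metabolism gives the setting, with lists of genes drawn up by role. The counts of each list are to be read against the 28.3% of all genes tested that passed, 15.2% higher and 13.1% lower. Of 16 other glycolytic enzymes tested 1 passed: PFKM, the muscle isoform of phosphofructokinase, rose (0.40, SE 0.08, limma adjusted p = 0.0100), by 0.07 in Malme3M and by 0.38 to 0.69 in the other lines. The median of the 16 was 0.02, against 0.03 for all genes tested. Of the 23 such enzymes with a named probe set, 7 were too dim to be tested. Among these PFKFB4, of the same family as PFKFB2 and PFKFB3, was lower in all 5 lines, from -0.16 in SkMel-19 to -2.73 in Malme3M. ENO3 was higher in all 5 lines, from 0.02 in SkMel-1 to 0.53 in SkMel-19. The changes of these dim genes were not tested. GAPDH (0.09, SE 0.06, limma adjusted p = 0.304), ENO1 (-0.01, SE 0.05, limma adjusted p = 0.895) and PKM (0.01, SE 0.05, limma adjusted p = 0.895), chosen here after their values were seen as the best known of the pathway, did not pass. Of 5 other sugar transporters tested none passed. SLC2A10 was higher in all 5 lines (0.57, SE 0.21, limma adjusted p = 0.0733), and SLC2A6 stood at -0.20 (SE 0.13, limma adjusted p = 0.303).

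Among 13 genes of pyruvate and lactate handling 3 rose and none fell, with a median of 0.13. They were PDK2, a kinase of the same family as PDK1 (0.62, SE 0.11, limma adjusted p = 0.00497), and 2 subunits of pyruvate dehydrogenase, DLD (0.38, SE 0.06, limma adjusted p = 0.00364) and PDHA1 (0.23, SE 0.06, limma adjusted p = 0.0226), each higher in 5 of 5 lines. PDK2 had signals at 250 nM of 439 in SkMel-1, 283 in SkMel-5, 266 in SkMel-28, 270.0 in SkMel-19 and 396 in Malme3M, against 376.5 in SkMel-1, 161 in SkMel-5, 148 in SkMel-28, 176 in SkMel-19 and 233 in Malme3M in DMSO. SkMel-1 was the brightest line in both groups. PDK2 and the dehydrogenase subunits act against each other, the kinase as an inhibitor of the enzyme, and PDK1 did not pass.

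Of 14 genes of the pentose phosphate pathway and the hexosamine and glycogen branches 2 fell and none rose, with a median of 0.07. UAP1, which makes UDP-N-acetylglucosamine in the hexosamine branch, fell (-0.97, SE 0.18, limma adjusted p = 0.00541), and so did RPIA, the ribose 5-phosphate isomerase of the nonoxidative pentose phosphate pathway (-0.63, SE 0.08, limma adjusted p = 0.00113), both in all 5 lines. Both also fell at 1000 nM, UAP1 by 1.57 on the log2 scale (limma adjusted p = 0.0128) and RPIA by 0.70 (limma adjusted p = 0.0190).

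Several of the genes described here are known targets of hypoxia-inducible factors. Whether such targets changed differently from the others was not tested. Of 18 other genes of the hypoxia response tested 4 rose and 3 fell, with a median of -0.16. BHLHE40, a transcriptional repressor, fell (-0.98, SE 0.16, limma adjusted p = 0.00302), as did the angiogenic factor VEGFA (-0.98, SE 0.24, limma adjusted p = 0.0170). EPAS1, which encodes the hypoxia factor subunit HIF-2 alpha, rose (0.85, SE 0.18, limma adjusted p = 0.00965), as did the histone demethylase KDM3A (0.65, SE 0.10, limma adjusted p = 0.00208).

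**Figure D5:**
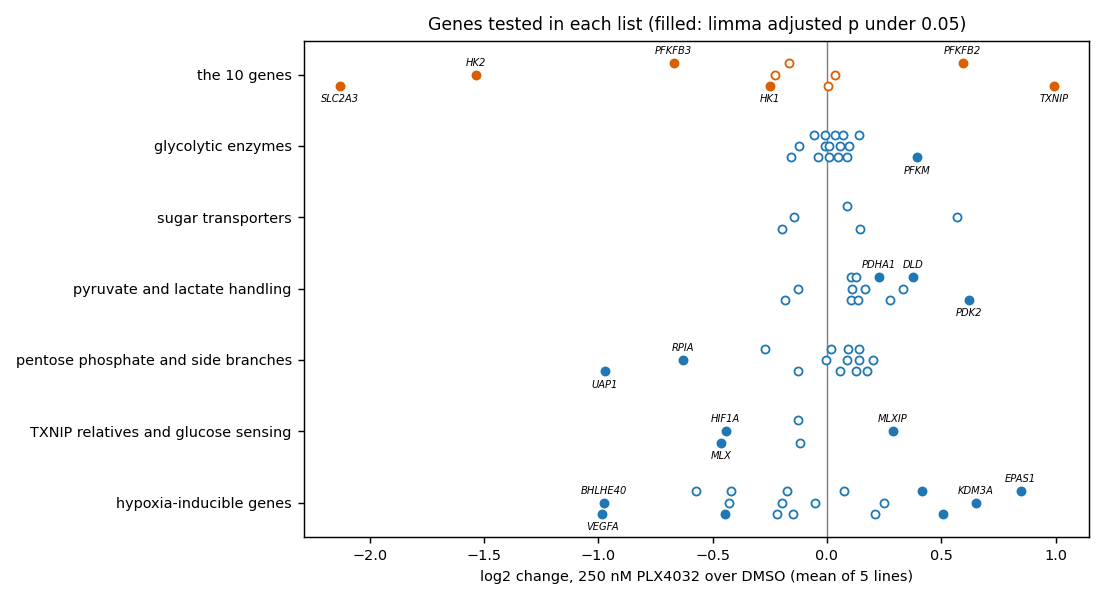
Mean log2 change at 250 nM PLX4032 over DMSO (n = 5 lines) of every gene tested in 7 lists, 1 point per gene, filled where the limma adjusted p is under 0.05. The other glycolytic enzymes tested lie close to 0 apart from PFKM, while SLC2A3 and HK2 lie far to the left and TXNIP to the right. Genes too dim to be tested are not shown.

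In DMSO the lines differed widely in some of these genes and little in others. The highest line stood 20.4-fold over the lowest for PFKFB3, 10.6-fold for TXNIP, 5.02-fold for HK2, 4.68-fold for HK1, 4.41-fold for PDK1, 4.11-fold for SLC2A1, 2.66-fold for SLC2A3, 1.53-fold for PFKFB2, 1.37-fold for LDHA and 1.19-fold for PGK1. SkMel-1 was highest for PFKFB3, HK1 and PDK1 and lowest for TXNIP and HK2. With 1 DMSO array per line these differences have no replicate check. SkMel-1 was also the line in which TXNIP, PFKFB2 and PFKFB3 changed most at 250 nM. SkMel-5 had the smallest change of the 5 lines in all of these.

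For each of the 6 genes that passed at 250 nM, PFKFB2 included, the 3 genes outside the 10 most alike over the 12 arrays were found by the Pearson correlation of log2 values. These correlations mix differences between lines with differences between doses. A gene picked for following another over treated and DMSO arrays tends to move with it. Directions shared with these matches are therefore a description. SLC2A3 was most like the phosphate transporter gene SLC20A1 (r = 0.94) and SPRED2 and SPRY2, feedback inhibitors of ERK signalling (r = 0.93 and 0.92), all of which fell at 250 nM. Among the genes most like HK2 were the plasminogen activator gene PLAT and ATOSB (r = 0.94 for both), of which PLAT fell and ATOSB did not pass. TXNIP was most like TRIP11, DET1 and GPC1 (r = 0.97, 0.95 and 0.93), of which TRIP11 and DET1 rose. PFKFB2 was most like MTMR11, HERC1 and ZNF211 (r = 0.93, 0.92 and 0.92), all of which rose. The genes most like HK1, PPP6R3, FIBP and FAM89B (r = 0.99, 0.98 and 0.98), did not pass. Of those most like PFKFB3, ALG13, PTPN3 and PTER (r = 0.97, 0.93 and 0.93), PTPN3 fell and the others did not pass.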

How the data were processed

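The deposited values are linear intensities, 1 for each probe set on each array. Per the submitters' processing notes, the authors made them with GCOS, Affymetrix software of unstated version. RNA was labelled with biotin following Affymetrix, per the labels' protocols. The summary over probes was not described in the sources used. The mean of each array without its lowest and highest 2% of values lay between 500.13 and 500.15, so the values were taken as deposited.

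From them, log2(signal + 12) was computed, 12 being the 20th percentile of all values. Of 22277 probe sets 62 are controls, 1 symbol was annotated to 19064 of the rest, several to 1043 and none to 2108. The probe set of highest mean stood for its gene. Genes under the 40th percentile of mean level (6.61, a signal of 85.7) were dropped, leaving 7178 of 11963, and all 10 genes passed this filter. limma 3.58.1 in R 4.3.3 was used with a trended prior variance, Benjamini-Hochberg adjustment and the line as a fixed block. At 250 nM there were 10 arrays with 4 residual degrees of freedom, and the others had 6 arrays of 2 lines, whose error is pooled over lines and doses. A second fit took the 11986 probe sets above the same level. The pairing comes from the cell line in the labels. Over the genes tested, deviations from group means correlated at 0.898 to 0.931 between arrays of the same line and at no more than -0.135 between lines. Centring on group means itself pushes correlations between lines negative. The values within a line show that lines differ, and cannot tell whether its arrays came from paired cultures. The number of arrays limits the precision. With the line as a block, p-values weigh a mean change against the spread of the changes between lines, moderated by the prior variance. They do not measure the spread between cultures of a line.

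The 10 genes, the lists and the tests were chosen with earlier results of these data known. Genes named are the 10, at most 4 from each list (the largest changes past the threshold at 250 nM, or failing any, the lowest 2 by p), and the 3 most alike per gene that passed, of which 1 is not reported here. GAPDH, ENO1, PKM, PFKFB4 and ENO3 were added after their values were seen. The limma fits of genes were tested on simulated arrays with known changes, and the other steps were not. The settings tried were other pseudocounts, filters, scalings and probe set summaries, other variance priors, no block or a random block, all 12 arrays in 1 fit, and leaving out each line. Promoter sequences are from RefSeq (GRCh38.p14). The build and annotation behind the array are not needed for the signals and were not used here. Plots were made in Python 3.11.15 (matplotlib 3.10.9). A planned comparison of protein sequences was not run.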

Additional observations from a re-analysis of the deposited data

Results flagged for a closer look

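PDK1 in SkMel-1 in DMSO stood apart from the other 4 lines, with a log2 level of 8.77, against 7.22 in the next line and 6.75 in the lowest. The gap to the next line was 0.771 of the whole range. In all, 30 groups of 5 values were examined this way, the levels at 250 nM, the levels in DMSO and the changes of the 10 genes, and this was the single value that stood apart; chance alone marks about 1 in 20 such groups.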

How the results depend on the processing

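The falls of SLC2A3 and HK2 and the rise of TXNIP at 250 nM passed under every setting tried except the fit with no replicate block, while HK1 and PFKFB3 lost their call in 4 of 17 settings and PFKFB2 in 3 of 16. PFKFB2, SLC2A1, SLC2A3 and PDK1 were too dim for the filter at the 60th percentile. Without the replicate block, which leaves the large differences between lines in the error, 0 of the 10 genes passed in any comparison, with an adjusted p of 0.105 for SLC2A3, and 13 genes passed in all at 250 nM (1 higher, 12 lower) and 0 at 1000 nM and at 250 nM in the lines with both doses, while 16 probe sets did.

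Leaving out each line in turn gave 1288 to 1836 genes at 250 nM (638 to 985 higher), 4 to 6 of the 10 genes, and 1812 to 2587 probe sets. The counts moved most without SkMel-19 (1288 genes, 1901 probe sets) and without Malme3M (1339 genes, 1812 probe sets). At 1000 nM 445 genes passed with no filter, 460 with signals raised to the filter level and 530 with a prior variance without trend. At 250 nM in the lines with both doses, 430 passed with no filter and 468 with signals raised to that level. With SkMel-19 or Malme3M left out of these comparisons 1 line remained, with no test, and SLC2A3 at 1000 nM stood at -5.20 in Malme3M alone and -1.37 in SkMel-19 alone.

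The signs that turned belonged to changes that did not pass. LDHA at 250 nM was -0.0227 with arrays centred on their median and -0.0525 with quantile normalization, and ranged from -0.0280 to 0.0327 as lines were left out. PGK1 at 250 nM was -0.0155 with quantile normalization and between -0.000679 and 0.0694 as lines were left out. At 1000 nM PGK1 was -0.00776 with arrays centred on their median and -0.0398 with quantile normalization, and in the lines with both doses at 250 nM it was 0.0465 with the mean of all probe sets. Between the doses SLC2A3 was 0.10 with a pseudocount of 64, 0.32 with signals raised to the filter level and 0.0692 with the mean of all probe sets, SLC2A1 was 0.21 with that mean, and LDHA was -0.0142 with quantile normalization. The cause was not tested. As lines were left out, the shift of the control ratio ranged from -0.0245 to 0.0180 for GAPDH and from -0.0461 to 0.00577 for ACTB.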
